A study of Mus musculus with 6 samples.

Results

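The VPS13 and BEACH domain genes described here are 10 of the 15565 genes of a count table from sorted mouse hepatocytes, the parenchymal cells of the liver. They were taken by symbol: the 4 VPS13 genes Vps13a, Vps13b, Vps13c and Vps13d, and the 6 BEACH domain genes Nbeal1, Nbeal2, Lrba, Lyst, Wdfy3 and Nsmaf. All 10 were present, and all 10 passed the expression filter with 13288 genes in all. Hepatocytes of 3 C57BL/6 mice aged 2 months were freed by collagenase perfusion, and TERT(High) cells were sorted from TERT(Low) cells. Polyadenylated RNA of both sorts was sequenced, giving 6 libraries in 2 groups of 3. By the replicate number of the labels, each mouse gave 1 library to each group. Every animal, and so each group, had the genotype Tert(CreERT2/+); R26(LSL-Tomato/+). This places a tamoxifen-regulated Cre recombinase at 1 copy of Tert, the gene of the catalytic subunit of telomerase, and a Tomato reporter behind a Cre-removable stop at 1 copy of R26. The labels record no treatment and do not say which signal was used to sort the cells. The comparison asks how RNA levels differ between hepatocytes with much and with little Tert expression in the same liver. The genes were chosen with this comparison already known, so their differences between the sorts are given as a description, without a test, and are no independent evidence of a direction.

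VPS13 proteins are rod-shaped lipid transfer proteins. A hydrophobic groove along the rod lets phospholipids slide between the membranes of organelles that touch, and each family member bridges its own set of contact sites. BEACH proteins carry a conserved domain of that name, preceded by a pleckstrin homology-like domain and followed by WD40 repeats, and most act as scaffolds in vesicle traffic, lysosome size control or autophagy. Both families are known mainly from inherited disease of the brain, blood and immune system. In hepatocytes, membrane contacts and lysosomes serve lipid storage, lipoprotein output and autophagy.

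Depth in units of 1e6 counts was 53.6 to 64.1 for TERT(High) and 55.4 to 76.2 for TERT(Low) libraries. Tert itself had 30 to 38 counts in each TERT(High) library and 12 to 21 in each TERT(Low) library, and edgeR's quasi-likelihood test gave a log2 fold change of 0.87 (SE 0.44) with an adjusted p of 0.249. All 10 hepatocyte markers were detected. They summed to 117024 to 131207 counts per 1e6 counts (CPM) in TERT(High) and 108839 to 130856 CPM in TERT(Low) libraries. Alb led this sum, at 78801 to 90335 against 51578 to 75570 CPM. The median log2 fold change of the 10 was -0.36. Of these markers edgeR called 0 higher and 1 lower, beside 4.43% and 3.71% of all tested genes. At an unadjusted p under 0.05, 0 were higher and 3 lower, beside 16.3% and 12.4%. Markers of sinusoidal endothelial cells summed to 28.1 to 50.8 CPM against 20.2 to 23.2 CPM. Clec4g led this sum, at 7.07 to 11.1 against 8.65 to 10.3 CPM. Of the 8 markers, 6 had all TERT(High) above all TERT(Low) levels, beside 17.5% of all tested genes. The median log2 fold change of the 8 was 1.17. By edgeR 2 were called higher (4.43% of all tested genes) and 0 lower (3.71%). At an unadjusted p under 0.05, 6 were higher (16.3%) and 0 lower (12.4%). The 8 neutrophil markers in the table summed to 5.10 to 13.7 against 4.85 to 11.5 CPM, but Cxcr2 led this sum and ran from 2.68 to 4.31 against 4.52 to 10.4 CPM. Of the 6 tested neutrophil markers, 4 (S100a9, Csf3r, Ngp and Camp) had all TERT(High) above all TERT(Low) levels, beside 17.5% of all tested genes. The median log2 fold change of the 6 was 2.07. By edgeR 0 of the 6 were called. An unadjusted p under 0.05 was found for 3 that were higher and 1 that was lower, beside 16.3% and 12.4% of all tested genes. S100a9, the most abundant of the 4 in TERT(High) cells, was at 0.721 to 2.09 against 0.136 to 0.588 CPM. The part of endothelial and neutrophil RNA in the results below was not tested. The 10 Kupffer cell markers summed to 19.1 to 108 against 17.2 to 51.9 CPM, and the 6 erythroid markers to 17.5 to 207 against 39.9 to 61.0 CPM. Stellate cell markers summed to 247 CPM in the TERT(High) library of mouse 1, nearly all from Col1a1 (127 CPM) and Col1a2 (105 CPM), and to 4.37 to 13.5 CPM elsewhere. The sum of bile duct markers also peaked in that library, at 11.7 CPM against 2.05 to 3.43 CPM in the others, nearly all from Spp1 (10.8 CPM). Sox9 and Epcam did not peak there, with Sox9 at 0.783 CPM against 0.736 to 2.12 CPM in the others. The T and NK cell, B cell and platelet lists each stayed at or below 1.89 CPM in every library. In bulk RNA, fewer cells of a type and less RNA per cell cannot be told apart.

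Seen together, 8 of the 10 genes had all 3 TERT(High) levels above all 3 TERT(Low) levels, an arrangement found for 17.5% of all tested genes. The exceptions were Nbeal2 and Nsmaf. Levels are CPM scaled by TMM, which corrects library totals for composition. Within mice, 9 of 10 were higher in TERT(High) cells of all 3 animals, against 28.2% of tested genes, and Nbeal2 was not. By edgeR at an adjusted p under 0.05 (termed called), 6 were higher, namely Vps13a, Vps13b, Vps13c, Nbeal1, Lrba and Lyst, against 4.43% of tested genes. None of the 10 was called lower, against 3.71% of tested genes. Nothing is read from these counts, because this contrast was in view when the genes were chosen. The median log2 fold change was 1.96 for the VPS13 genes and 1.39 for the BEACH domain genes, beside -0.01 for all tested genes.

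**Figure D1:**
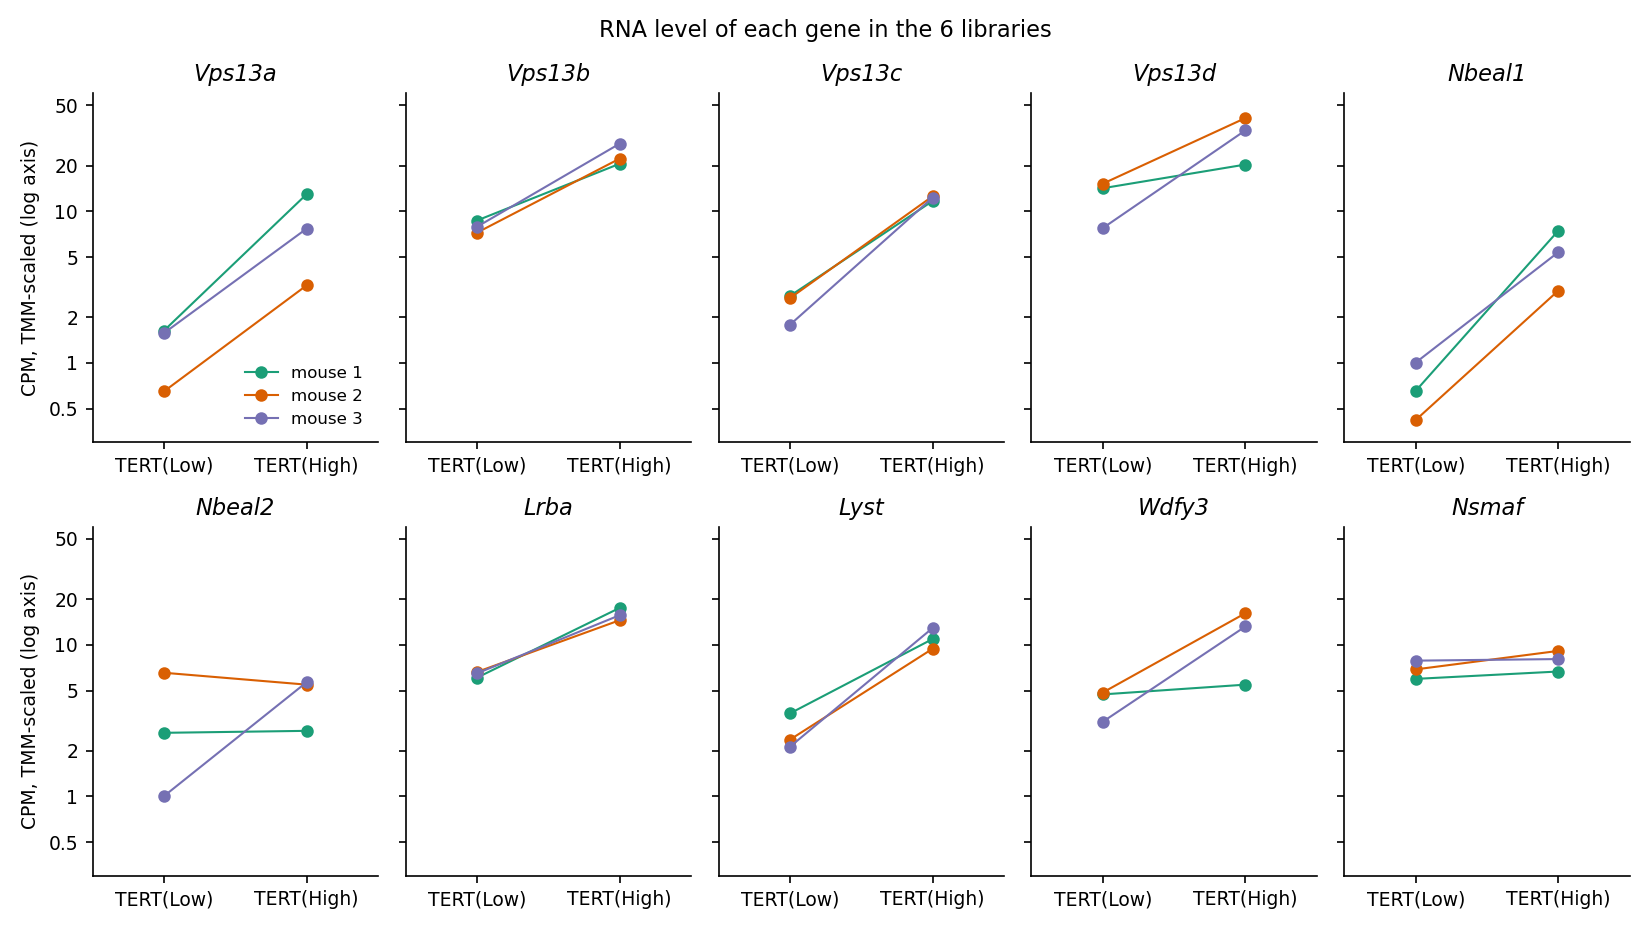
RNA level of each of the 10 genes in CPM (TMM-scaled, log axis) in the TERT(Low) and TERT(High) library of each mouse, with a line joining the libraries of 1 mouse. Lines climb in all 3 mice for 9 genes, while that of Nbeal2 in mouse 2 goes from 6.55 down to 5.47 CPM and Nsmaf stays between 5.97 and 9.13 CPM.

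Among the VPS13 genes, Vps13a and Vps13c differed most between the sorts. Vps13a (Entrez gene 271564, chr19:16615366-16781071, minus strand) encodes a bridge between the endoplasmic reticulum and mitochondria or lipid droplets, and its loss in humans causes chorea-acanthocytosis. In the order of mice 1, 2 and 3, its level was 13.01, 3.25 and 7.70 CPM in TERT(High) and 1.63, 0.649 and 1.57 CPM in TERT(Low) cells, and values below follow that order. The groups did not overlap, but the lowest TERT(High) library, from mouse 2, was within 2-fold of the highest TERT(Low) library. The log2 fold change was 2.63 (SE 0.59), and the ratio within mice was 7.96, 5.01 and 4.89.

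Vps13c (Entrez gene 320528, chr9:67840316-67997744, plus strand) links the endoplasmic reticulum to late endosomes, lysosomes and lipid droplets, and its human counterpart is a gene of early-onset Parkinson's disease. It was at 11.7, 12.6 and 12.3 CPM in TERT(High) and at 2.77, 2.67 and 1.78 CPM in TERT(Low) cells. The TERT(High) values lay closer together than those of any other of the 10 genes, at 12.2 ± 0.452 CPM (SD, n = 3) against 2.41 ± 0.542 CPM. Its log2 fold change was 2.34 (SE 0.22), a ratio of means of 5.07.

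Vps13b (Entrez gene 666173, chr15:35371118-35931229, plus strand) acts at the Golgi apparatus, and its loss causes Cohen syndrome. It was at 20.6, 22.3 and 28.0 CPM in TERT(High) and at 8.71, 7.24 and 7.91 CPM in TERT(Low) cells, with no overlap and a log2 fold change of 1.57 (SE 0.18). The 3' part of Vps13b overlaps exons of Cox6c on the other strand by 250 nt, and the strand setting used in counting is not given in the sources used here, so part of its reads is uncertain.

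Vps13d (Entrez gene 230895, chr4:144871045-145195037, minus strand) serves mitochondria and peroxisomes and takes part in the clearance of mitochondria. Its levels were 20.4, 41.3 and 34.3 CPM in TERT(High) and 14.2, 15.2 and 7.76 CPM in TERT(Low) cells. The groups did not overlap, yet the ratio within mice ran from 1.43 in mouse 1 through 2.71 in mouse 2 to 4.42 in mouse 3. Its log2 fold change of 1.37 (SE 0.35) was not called.

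Of the BEACH domain genes, Nbeal1 showed the widest ratio between the sorts. Nbeal1 (Entrez gene 269198, chr1:60178740-60338328, plus strand) encodes a protein of the Golgi related to neurobeachin. It had 458, 182 and 314 counts in TERT(High) libraries and 48, 22 and 53 counts in TERT(Low) libraries, or 7.48, 3.01 and 5.39 CPM against 0.654, 0.420 and 1.01 CPM. The lowest TERT(High) library still had about 3 times the highest TERT(Low) level. The ratio within mice was 11.4, 7.16 and 5.36, and the fitted log2 difference had an SE of 0.46.

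Lyst (Entrez gene 17101, chr13:13590311-13778803, plus strand) controls the size of lysosomes and related organelles, and is mutated in beige mice and in Chediak-Higashi syndrome. It was at 10.9, 9.43 and 12.9 CPM in TERT(High) and at 3.53, 2.37 and 2.12 CPM in TERT(Low) cells, with a log2 fold change of 2.05 (SE 0.26). Lrba (Entrez gene 80877, chr3:86223456-86782694, plus strand), whose product keeps the checkpoint receptor CTLA4 from lysosomal degradation in T cells, was at 17.5, 14.5 and 15.7 CPM against 6.08, 6.63 and 6.49 CPM. Its libraries spread least of the 10 genes within TERT(Low) cells, at 6.40 ± 0.286 CPM, and its log2 fold change of 1.32 had the smallest SE, 0.15. Neither gene overlapped between the groups. Mab21l2 lies in Lrba on the other strand and shares 1097 nt of exon, which leaves part of those reads uncertain.

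Wdfy3 (Entrez gene 72145, chr5:101832953-102072215, minus strand) encodes ALFY, an adaptor that brings protein aggregates to autophagy membranes. It was at 5.47, 16.2 and 13.2 CPM in TERT(High) and at 4.71, 4.85 and 3.11 CPM in TERT(Low) cells. Mouse 1 differed little between its sorts, with a ratio of 1.16, while mice 2 and 3 had ratios of 3.34 and 4.26. The log2 fold change of 1.46 (SE 0.42) was not called.

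Nbeal2 and Nsmaf overlapped between the sorts. Nbeal2 (Entrez gene 235627, chr9:110624789-110654161, minus strand), needed for the alpha-granules of platelets and mutated in gray platelet syndrome, was at 2.71, 5.47 and 5.68 CPM in TERT(High) and at 2.63, 6.55 and 1.01 CPM in TERT(Low) cells. TERT(Low) libraries thus held both its highest and its lowest value, and the log2 fold change of 0.45 (SE 0.65) rested on mouse 3. It was 1.35 without the TERT(Low) library of mouse 2 and -0.17 without both libraries of mouse 3. Nsmaf (Entrez gene 18201, chr4:6396207-6454840, minus strand) encodes FAN, an adaptor between the TNF receptor and neutral sphingomyelinase. It was at 6.68, 9.13 and 8.06 CPM against 5.97, 6.89 and 7.87 CPM, a log2 fold change of 0.20 (SE 0.19). Nsmaf shares 78 nt of exon with Sdcbp on the other strand.

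Compared per length, the order of the genes was similar in both sorts. In TERT(Low) cells Nsmaf led with 1.97 ± 0.272 CPM per kb of transcript (SD, n = 3), followed by Vps13d at 0.783 ± 0.256, Lrba at 0.647 ± 0.0289 and Vps13b at 0.578 ± 0.0534. Wdfy3 (0.399 ± 0.0914), Nbeal2 (0.386 ± 0.324), Vps13c (0.209 ± 0.0471) and Lyst (0.203 ± 0.0569) formed the middle, and Vps13a (0.119 ± 0.0510) and Nbeal1 (0.0441 ± 0.0187) came last. Only the steps from Nsmaf to Vps13d, from Vps13b to Wdfy3 and from Lyst to Vps13a separated the libraries of neighbouring genes, and the other neighbours overlapped.

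In TERT(High) cells Nsmaf (2.27 ± 0.351 CPM per kb) and Vps13d (2.02 ± 0.673) again came first, and their libraries overlapped there. Vps13b (1.72 ± 0.280), Lrba (1.61 ± 0.153), Wdfy3 (1.10 ± 0.524) and Vps13c (1.06 ± 0.0392) followed. Lyst (0.842 ± 0.133), Vps13a (0.737 ± 0.451), Nbeal2 (0.525 ± 0.188) and Nbeal1 (0.336 ± 0.142) closed the order. Only the step from Vps13c to Lyst separated the libraries of neighbouring genes. Taken per kb of coding sequence instead, Nbeal1 (0.656) came before Nbeal2 (0.560) in TERT(High) cells, the Nbeal1 transcript having 15731 nt of which 8064 are coding. In TERT(Low) cells Nbeal2 (0.411) then came before Wdfy3 (0.399), and Lyst (0.235) before Vps13c (0.214). The Wdfy3 transcript used has 10581 nt, of which 10578 are coding.

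**Figure D2:**
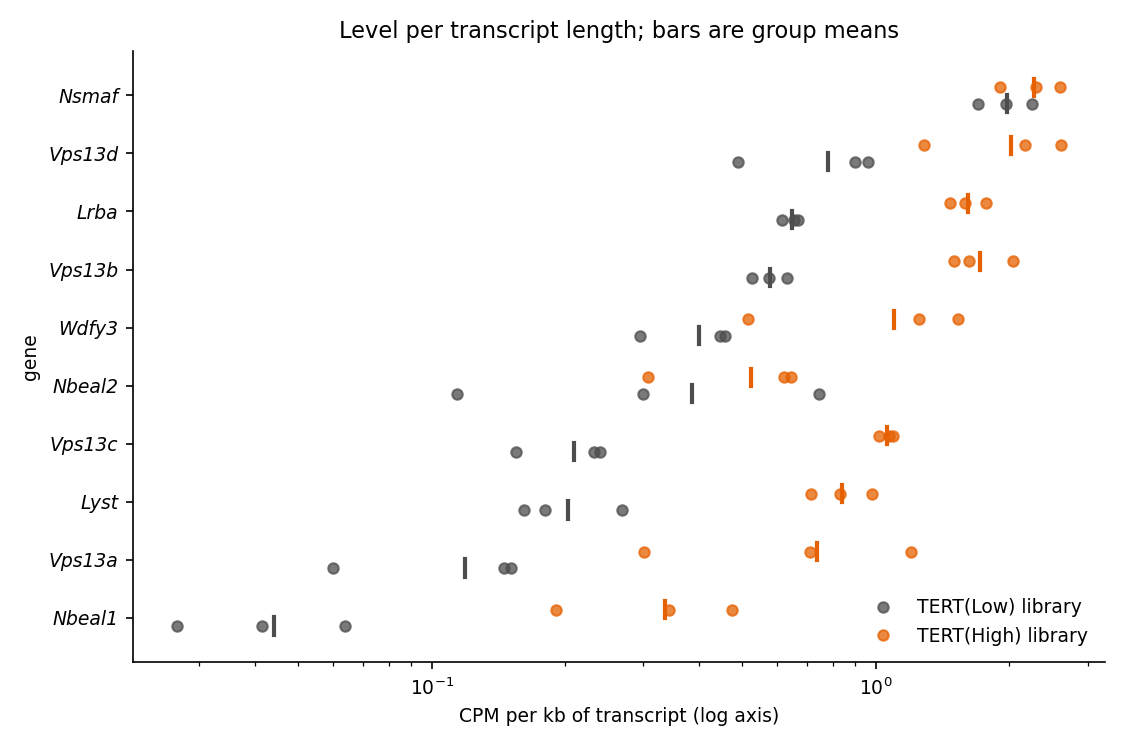
CPM per kb of transcript (log axis) of each gene in the 3 TERT(Low) and 3 TERT(High) libraries, ordered by the TERT(Low) mean, with bars at group means. On this scale Nsmaf is first in both sorts (1.97 and 2.27) and Nbeal1 last (0.0441 and 0.336).

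Expressed as a share of its family's RNA per length, each family was made up differently in the sorts. Vps13c supplied 20.3, 19.4 and 17.9% of VPS13 RNA in TERT(High) cells and 12.5, 13.03 and 11.3% in TERT(Low) cells. Vps13d supplied 25.7, 46.4 and 36.2% against 46.7, 54.0 and 35.9%, which overlapped. Among BEACH domain genes Nsmaf made up 32.8, 36.5 and 32.4% in TERT(High) and 50.5, 48.6 and 63.5% in TERT(Low) cells. The share of Nbeal1 was 5.23 ± 2.77% against 1.23 ± 0.574%, and that of Lrba 24.5 ± 5.31% against 17.8 ± 1.07%. These shares come from the same contrast and are a description too.

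The choice of genes made no use of differences between mice, so these were tested. In edgeR's fit of mouse and sort together, 0 of the 10 genes differed between mice at an adjusted p under 0.05, and neither did any other tested gene (0% of 13288). At an unadjusted p under 0.05 there were 1761 genes, and of the 10 only Vps13a (edgeR adjusted p = 0.217). Its RNA in mouse 2 stood at a log2 difference of -1.70 from mouse 1, and in mouse 3 at -0.43. Nbeal1 came next with a log2 difference of -1.03 in mouse 2 (edgeR adjusted p = 0.381). With a stricter filter on low counts 22 genes differed between mice, among them none of the 10.

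Libraries deviated from their group means in distinct sets of genes. Vps13a deviated on the log2 scale by 0.91 in TERT(High) cells of mouse 1 and by -1.07 in those of mouse 2, and in TERT(Low) cells of these mice by 0.45 and -0.84. Nbeal1 was at 0.59 and -0.71 in mice 1 and 2 among TERT(High) cells, and at -0.60 in TERT(Low) cells of mouse 2. Both genes were thus lowest in mouse 2 in each sort. Vps13d, Wdfy3 and Nbeal2 had the opposite arrangement in TERT(High) cells, at -0.59, -0.94 and -0.69 in mouse 1. The same 3 genes were lowest in mouse 3 among TERT(Low) cells, at -0.61, -0.41 and -1.34. The library that set these genes apart, TERT(High) of mouse 1, was also the one with most collagen, Spp1 and hemoglobin RNA. The part of this in the deviations was not tested. Lrba stayed within 0.14 of its group mean in all 6 libraries.

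**Figure D3:**
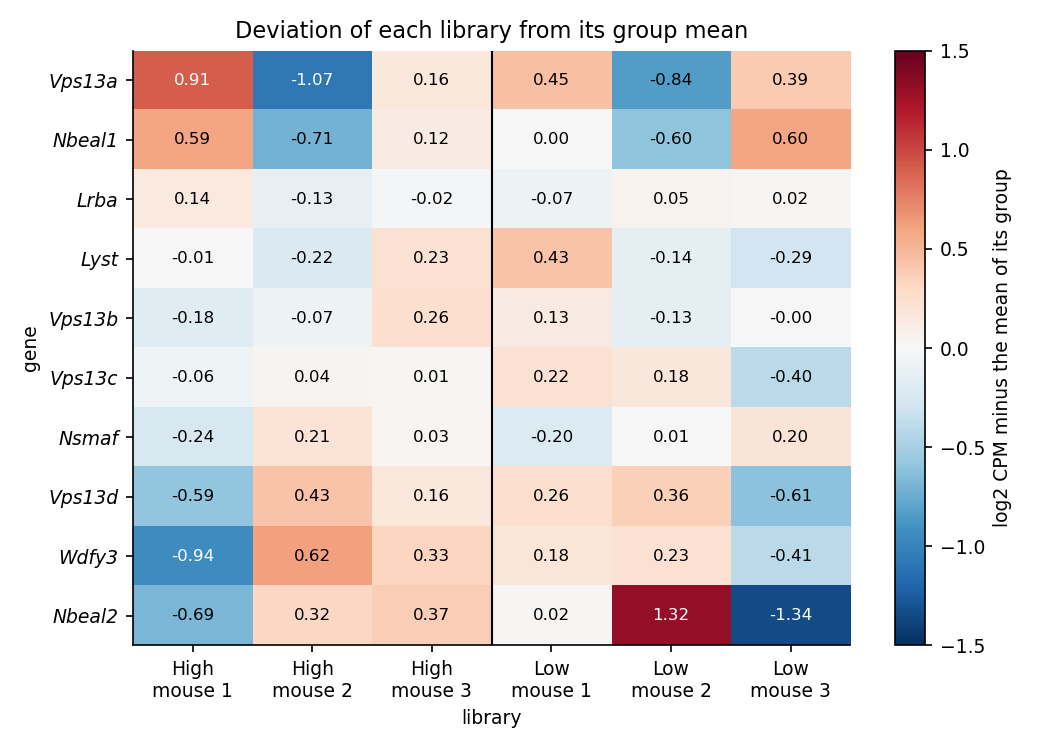
Deviation of each library from the mean of its group, in log2 CPM, for the 10 genes (rows) and 6 libraries (columns), with red above and blue below the mean. Vps13a and Nbeal1 are below the mean in both libraries of mouse 2 (-1.07 and -0.84 for Vps13a), while Vps13d, Wdfy3 and Nbeal2 are below it in TERT(High) of mouse 1.

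The sequence upstream of the RefSeq start is given for Vps13a and Nbeal1, which deviated together, and for Nbeal2, which deviated the other way. Over the 6 libraries, the deviations of Vps13a and Nbeal1 had a Pearson correlation of 0.93. Those of Nbeal2 correlated at -0.70 with Vps13a and at -0.84 with Nbeal1. Vps13d, whose windows are not printed, was further opposed, at -0.75 with Vps13a and -0.91 with Nbeal1. The RefSeq table (GRCm38.p6) matched 6 of the 10 genes (Vps13a, Vps13d, Nbeal1, Nbeal2, Lrba and Lyst) with 7 windows, of 32851 windows of 27025 genes, each 250 bases before a start. Capitals mark the GC box, GGGCGG or CCGCCC on the other strand, which the factor SP1 can bind. The windows are chr19:16781072-16781183 (minus strand, the 112 bases of its window that lie outside the gene span given above), chr1:60180349-60180598 (plus strand, inside the RefSeq span of the gene) and chr9:110654162-110654411 (minus strand).
Vps13a: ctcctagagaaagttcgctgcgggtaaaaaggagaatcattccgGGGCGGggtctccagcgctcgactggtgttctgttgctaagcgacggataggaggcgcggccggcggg
Nbeal1: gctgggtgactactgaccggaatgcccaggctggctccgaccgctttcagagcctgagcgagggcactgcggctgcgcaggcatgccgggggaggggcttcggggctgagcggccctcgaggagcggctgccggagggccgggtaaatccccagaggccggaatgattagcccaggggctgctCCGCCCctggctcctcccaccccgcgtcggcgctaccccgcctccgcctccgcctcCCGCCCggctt
Nbeal2: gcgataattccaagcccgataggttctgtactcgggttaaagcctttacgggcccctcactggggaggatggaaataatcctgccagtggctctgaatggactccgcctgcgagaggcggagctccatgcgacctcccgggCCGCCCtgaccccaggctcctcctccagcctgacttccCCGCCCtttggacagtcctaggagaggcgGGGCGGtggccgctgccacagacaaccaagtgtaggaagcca

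Over the full 250-base windows, Vps13a had 37 CG dinucleotides, Nbeal1 24 and Nbeal2 14, where all windows had a median of 6 and quartiles of 2 and 16. Lyst had 22, Lrba 19, and the 2 windows of Vps13d 17 and 5. On both strands, at least 1 GC box stood in 6 of the 7 windows, all but the second of Vps13d, beside 32.7% of all windows. CCAAT stood in 1 window of Vps13d and in that of Lyst (33.9% of all windows), and TATAAA in both windows of Vps13d (12.4%). CACGTG, the core letters of the element that the lysosomal regulator TFEB binds, stood in none of the 7 windows and in 6.02% of all windows. These matches describe letters in a window and not sites in use.

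The 10 genes share the length of their products, with Nsmaf as the exception. By the GENCODE M21 transcript with the longest coding sequence, the VPS13 proteins have 3166 (Vps13a), 3993 (Vps13b), 3748 (Vps13c) and 4390 (Vps13d) residues. Among BEACH proteins, Lyst has 3787, Wdfy3 3526, Lrba 2854, Nbeal2 2750 and Nbeal1 2688 residues, while Nsmaf has 920 and is no giant protein. Coding sequences of 8064 nt or more, the length of Nbeal1, are found in 1.03% of tested genes with a known coding length. Exons number from 31 in Nsmaf to 85 in Vps13c, and gene spans run from 29.4 kb in Nbeal2 to 560 kb in Vps13b.

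Many genes with long coding sequences were higher in TERT(High) cells. Of 120 other tested genes with a coding sequence of at least 8064 nt, 22 were called higher (18.3%) and 0 lower, and 64 were higher in all 3 mice. Their median log2 fold change was 1.32, beside 1.57 for the 9 giant genes described here. Over all 12546 tested genes with a coding length, the Spearman correlation of log2 fold change with coding length was 0.515, and over the 10 genes it was 0.21. With the GC content of the transcript it was -0.28 over all and -0.84 over the 10. Nbeal1 had the lowest GC content (37.2%) and Nbeal2 the highest (59.9%), and these 2 genes had the highest and the second lowest log2 fold change. These correlations are across genes, which are not independent replicates and share the same libraries.

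**Figure D4:**
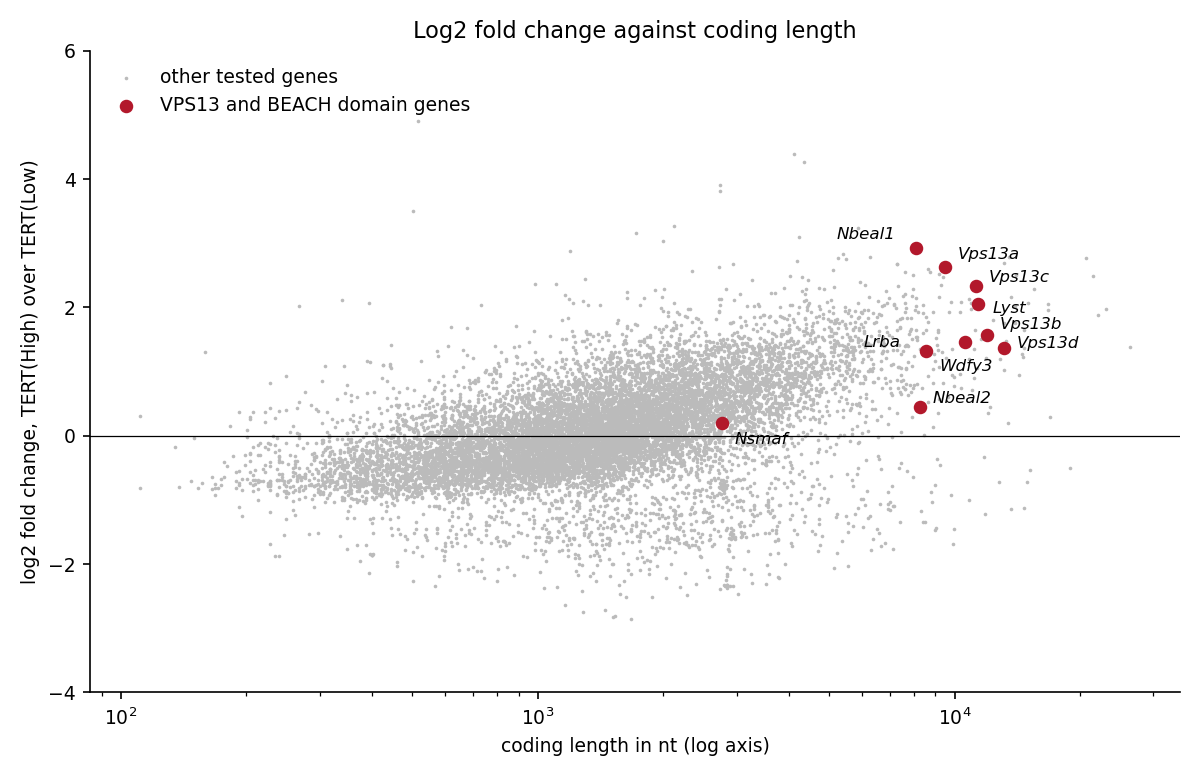
Log2 fold change (TERT(High) over TERT(Low)) against coding length in nt (log axis) for 12546 tested genes in grey and the 10 genes in red. The 9 giant genes lie right of 8064 nt, with Nbeal1 at 2.93 and Nbeal2 at 0.45, and Nsmaf lies at 2760 nt and 0.20.

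When each library's trend of counts with transcript length was removed, the log2 fold changes of the giant genes became smaller. Nbeal1 had 1.78, Vps13a 1.75, Vps13c 1.32 and Lyst 0.94. Wdfy3 had 0.44, Lrba 0.42, Vps13b 0.40 and Vps13d 0.07, while Nbeal2 was at -0.44 and Nsmaf at 0.09. The median over the 10 genes went from 1.52 to 0.43, with 0.06 for all genes, and edgeR called 0 genes. At an unadjusted p under 0.05 there were 1413 genes higher in that setting. With the GC trend removed as well, where edgeR again called 0 genes (1357 higher at an unadjusted p under 0.05), Nbeal1 (1.46), Vps13a (1.40), Vps13c (1.16) and Lyst (0.76) stayed above the rest, which lay between -0.70 (Nbeal2) and 0.24. In that setting with the mouse as a block, Vps13a, Vps13c and Nbeal1 were called, and 1.72% of all tested genes were called higher.

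**Figure D5:**
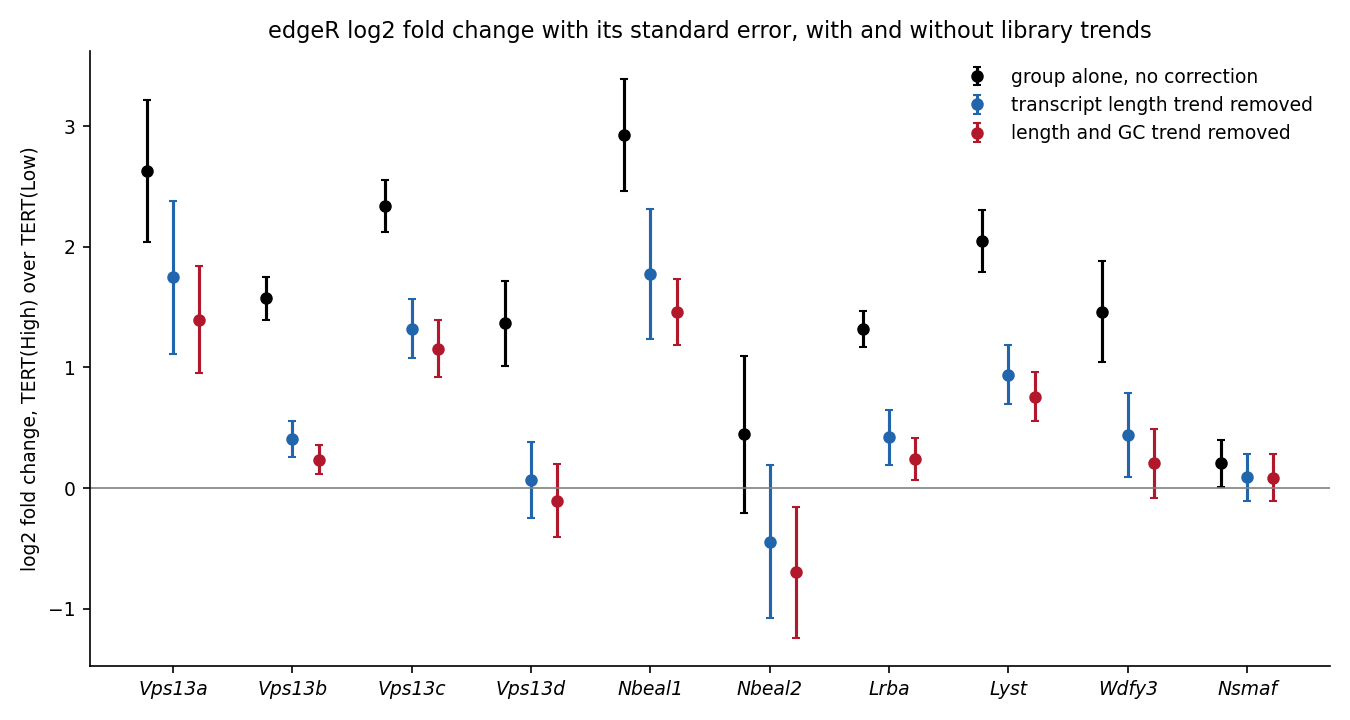
edgeR log2 fold change (TERT(High) over TERT(Low)) of each gene, with bars for the standard error derived from its F value. Colours give the fit without correction (black), with each library's length trend removed (blue) and with length and GC trends removed (red). Vps13b goes from 1.57 to 0.40 and 0.24, and Nbeal1 from 2.93 to 1.78 and 1.46.

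Calls among the 10 genes depended on the tool and on the libraries used. A stricter filter (8.18% of genes higher), DESeq2 (11.3%) and limma-voom (10.3%) each called 8 of the 10, adding Vps13d and Wdfy3. With the mouse as a block the same 6 were called, where 5.43% of genes were higher. Without the TERT(High) library of mouse 1, Vps13d and Wdfy3 were called and Vps13a was not, at a log2 fold change of 2.03. In that setting 6.85% of all tested genes were called higher. Leaving out any other library, or any mouse, left 0 genes called by edgeR at an adjusted p under 0.05, with 1071 to 1958 genes higher at an unadjusted p under 0.05. With library totals alone, where all tested genes had a median log2 difference of 0.14, Vps13d was called in place of Vps13a. There 4.73% of all tested genes were called higher. All 10 genes had a positive log2 fold change under each of the 4 scalings. In the authors' deposited table the log2 fold changes were 2.40 for Nbeal1, 2.19 for Vps13a, 2.15 for Vps13c, 1.88 for Lyst and 1.47 for Vps13b. The authors' deposited table gave 1.22 for Vps13d, 1.21 for Lrba, 1.18 for Wdfy3, 0.44 for Nbeal2 and 0.17 for Nsmaf. Its adjusted p, with DESeq2 named in the submitters' notes, was 0.000137 for Vps13d and 0.00213 for Wdfy3. It was 0.420 for Nbeal2, 0.620 for Nsmaf and at most 1.16e-06 for the 6 genes called by edgeR.

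Of 6 other bridge-like lipid transfer genes, relatives of the VPS13 proteins, edgeR called 2 higher and 0 lower, beside 4.43% and 3.71% of all tested genes. DESeq2 called 5 higher (11.3% of all genes) and limma-voom 4 (10.3%), and at an unadjusted p under 0.05 edgeR had 5 higher and 0 lower, beside 16.3% and 12.4% of all genes. All 6 were higher in each mouse, beside 28.2% of all genes, and their median log2 fold change was 0.97. These counts are of a list chosen with earlier results known. 4932438A13Rik, also known as Bltp1, encodes a giant of 15015 coding nt and was at 6.68, 9.03 and 14.2 CPM in TERT(High) against 2.75, 1.47 and 2.90 CPM in TERT(Low) cells (log2 fold change 2.06, SE 0.38, edgeR adjusted p = 0.0325). Uhrf1bp1l was at 22.8, 26.0 and 29.4 against 11.6, 15.1 and 14.2 CPM (log2 fold change 0.93, SE 0.17, edgeR adjusted p = 0.0331). The autophagy lipid transfer proteins Atg2a (log2 fold change 1.20, SE 0.43) and Atg2b (1.01, SE 0.34) were not called by edgeR, while DESeq2 called both and limma-voom called Atg2b. With the length trend removed 4932438A13Rik was at 0.75 and Uhrf1bp1l at 0.33. Of the other BEACH genes, Wdr81 (0.94, SE 0.41), Wdfy4 (1.21, SE 0.73) and Nbea (-1.03, SE 1.38) were called by none of edgeR, DESeq2 and limma-voom, and 0 of them had an unadjusted p under 0.05 in edgeR. Nbea was at 0.0573 to 2.21 CPM in TERT(Low) and 0.114 to 1.46 CPM in TERT(High) libraries, which overlapped.

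In the lists of partner genes, shares of called genes are to be read beside those over all genes. These were 4.43% higher and 3.71% lower in edgeR, and 11.3% and 9.6% in DESeq2. At an unadjusted p under 0.05 in edgeR they were 16.3% and 12.4%. Lipid scramblases, which even out lipids between the leaflets at the ends of such bridges, had 0 of 9 called by edgeR in either direction (unadjusted p under 0.05 for 1 higher and 2 lower genes) and a median log2 fold change of -0.15. Vmp1 was at -0.65 (SE 0.17, edgeR adjusted p = 0.0620), and DESeq2 and limma-voom each called it lower. Among partners of VPS13 proteins 0 of 10 were called by edgeR, DESeq2 or limma-voom, and 0 had an unadjusted p under 0.05 in edgeR (median -0.05). The median coding length was 969 nt in this list, 1338 nt for the scramblases and 1917 nt for the partners of BEACH proteins. For the lipid transfer list below it was 2415 nt, while the giant genes have at least 8064 nt. The part of length in these medians was not tested. Of 10 partners of BEACH proteins, Gabarap, an ATG8 protein of autophagosomes, was called lower at 176 ± 5.51 against 285 ± 18.7 CPM (log2 fold change -0.69, SE 0.13, edgeR adjusted p = 0.0332). Its coding sequence has 351 nt. With the length trend removed Gabarap was at -0.25 (edgeR adjusted p = 0.389), and with library totals alone at -0.54 (edgeR adjusted p = 0.0842). It was called in neither setting. The remaining 9 were not called by edgeR, but DESeq2 and limma-voom each called 2 of them higher. At an unadjusted p under 0.05, edgeR had 3 of the 10 higher and 2 lower. Of 27 genes of lipid transfer at contact sites of the endoplasmic reticulum, 2 were called higher by edgeR and 0 lower (9 and 1 at an unadjusted p under 0.05, and 7 and 0 by DESeq2). The median of this list was 0.34. They were Pdzd8, a tether that also moves lipids (log2 fold change 1.39, SE 0.18), and Col4a3bp, the ceramide transporter CERT (1.20, SE 0.23).

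Of 35 genes of the autophagy core machinery, 3 were called higher and 1 lower by edgeR (4.43% and 3.71% of all genes) and 6 and 7 by DESeq2 (11.3% and 9.6% of all genes), and the median was 0.07. The higher ones were Rb1cc1, a scaffold of the kinase complex that starts autophagy (1.98, SE 0.32), and the cargo receptors Tax1bp1 (1.68, SE 0.23) and Nbr1 (0.90, SE 0.15). The lower one was Gabarap, already named. None of 23 genes of lysosome-related organelle biogenesis (median -0.19) and none of 16 genes of HOPS, CORVET and retromer (median 0.23) was called by edgeR. At an unadjusted p under 0.05 there were 1 higher and 3 lower genes in the first of these lists. In the second there were 3 higher and 1 lower, beside 16.3% higher and 12.4% lower over all genes. DESeq2 called 1 higher and 3 lower, and 2 higher and 1 lower, and with the mouse as a block edgeR called 1 gene of the first list lower. The median coding length was 1344 nt for the autophagy list, 669 nt for lysosome-related organelle biogenesis and 2091 nt for HOPS, CORVET and retromer.

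Among genes of at least 5 CPM outside the 10, those whose log2 CPM over the 6 libraries was most alike to the mean of the 10 were picked by Pearson correlation. They were Birc6 (0.997), Usp1 (0.996), Gapvd1 (0.992), Itga1 (0.992) and Supt16 (0.991), each over 6 libraries that share mice and depth, and the correlations carry mainly the difference between the sorts. Birc6, an inhibitor of apoptosis of giant size, was at 35.5 ± 3.10 against 11.3 ± 1.44 CPM. Supt16, a subunit of the histone chaperone FACT, was at 10.3 ± 1.90 against 2.96 ± 0.0640 CPM.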

How the data were processed

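RNA of TERT(High) and TERT(Low) hepatocytes of 3 mice was sequenced after KAPA stranded mRNA library preparation, per the labels' protocols. Trim Galore 0.4.0, TopHat2 2.0.13, DESeq2 and mm10 are named in the submitters' processing notes, while the counting tool, strand setting and annotation are not stated there or in the labels. The authors' deposited table of raw counts per gene and library was used as it stands. The authors' deposited results table holds a mean signal (baseMean), log2 fold changes with errors, linear fold ratios, a test score and p-values. Of these, log2 fold changes and adjusted p-values are quoted.

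Counts were tested with edgeR 4.0.16 in R 4.3.3 (filterByExpr by group, TMM, robust quasi-likelihood fit of the sort alone, Benjamini-Hochberg over 13288 genes). The fold ratio of means is from CPM, and the log2 CPM deviations use a prior count of 2. Each SE of an edgeR log2 fold change was derived as its absolute value divided by the square root of the test's F value. Depth was 53.6 to 76.2 in units of 1e6 counts. The mouse of a library is the replicate number of its label, and libraries of the 2 sorts with the same number were taken as a pair. Deviations of a mouse's libraries from the group means correlated at -0.09, 0.73 and 0.60, and a replicate block for the mouse was an alternative. P-values of the fit without it treat libraries as independent. Other alternatives used DESeq2 1.42.0 or limma 3.58.1, another filter or scaling, or fewer libraries, and removed per-library loess trends (span 0.5) of length, or of length and GC, the latter chosen after seeing the data. Gene spans are RefSeq GRCm38.p6, and lengths are GENCODE M21. The test was tried on simulated counts that held no mouse pairs and no length trend, so nothing about either is read from that trial. The members, the lists and the rules were chosen with earlier results of these data known. Named genes are the 10, Tert, called list members (up to 4, at least 1 CPM, otherwise the 2 most abundant) and the 5 genes most alike, and not every gene so named is reported.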

Additional observations from a re-analysis of the deposited data

How the results depend on the processing

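The 10 genes kept a positive log2 fold change under each change of scaling, count filter or tool, and under the replicate block, where 721 genes were higher, 571 lower and 6 of the 10 called. DESeq2 called 1508 genes higher and 1276 lower, limma-voom 1373 and 1104, and library totals alone gave 19 lower. With the length trend removed edgeR called 0 genes higher, 0 lower and 0 of the 10, and the median of the 10 was 0.43, or 0.39 with the replicate block. With length and GC removed it was 0.24, again with 0 calls, and 0.23 with the replicate block, where 229 genes were higher, 200 lower and 3 of the 10 called. Leaving out a library or a mouse gave 0 to 937 genes higher, 0 to 713 lower and 0 to 7 of the 10 called. Nbeal2 turned negative with the length trend removed (-0.44, or -0.13 with the block), with length and GC removed (-0.70 and -0.42) and without mouse 3 (-0.17). Vps13d was at -0.10 with length and GC removed, with or without the block, and Wdr81 at -0.0031 with it. Nbea was at 0.35 without mouse 1. The strict filter gave 22 genes that differ between mice. With levels taken per coding length, 6 of the 10 kept their rank in TERT(Low) and 8 in TERT(High) cells, where Nbeal2 and not Nbeal1 then came last. The causes were not tested. Depth limits Nbeal1 and Vps13a most, with 22 and 34 counts in the TERT(Low) library of mouse 2.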
